A study of Mus musculus with 4 samples.

Results

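The genes described here are the butyrophilin-like genes Btnl1, Btnl2, Btnl4 and Btnl6, the chemokine gene Ccl25 and the lectin gene Clec2d, which were followed through single-cell RNA libraries of the neonatal mouse small intestine. The 6 genes were taken by symbol from the feature lists of all 4 libraries, out of 32227 genes, and each symbol matched a single entry (ENSMUSG00000062638, ENSMUSG00000024340, ENSMUSG00000058435, ENSMUSG00000092618, ENSMUSG00000023235 and ENSMUSG00000030157 in the order above). They had been selected on their values in these libraries, chiefly their levels in jejunum and ileum, so those levels are given as a description. The members were part of the fit of all genes below, and nothing is read from their calls. Epithelium was released with EDTA and dispase from jejunum and ileum of a male and a female wild-type mouse at postnatal day 6, with no treatment, and each region of each mouse gave 1 PIP-seq library. Each region therefore had 2 libraries, and the replicate number marks the mouse, so that replicate 1 of the jejunum and replicate 1 of the ileum shared an animal.

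Butyrophilin-like proteins are membrane proteins of the immunoglobulin superfamily, related to the B7 costimulators. In the mouse gut Btnl1 pairs with Btnl6 at the enterocyte surface, and this complex is recognised by a class of gamma-delta intraepithelial lymphocytes whose early-life expansion in the small intestine depends on it. Btnl4 is a close relative of Btnl6 that can also pair with Btnl1, and Btnl2 is known as an inhibitor of T cell activation. Ccl25 is the epithelial chemokine that draws Ccr9-bearing lymphocytes to the small intestine, and Clec2d (Clr-b) is the ligand of the inhibitory receptor encoded by Klrb1b on natural killer cells and other lymphocytes.

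The limits of more than 1000 and fewer than 6000 genes and under 20% mitochondrial molecules left 30521 of 36202 called cells, from 5722 to 8997 in a library. Ileal libraries were deeper (12047.5 and 10916 molecules in the median kept cell, where jejunal libraries had 4690 and 5884), and jejunal cells had the larger mitochondrial share (median 6.37% and 9.94%, against 3.61% and 3.74%). No pair of libraries shared more than 1 cell barcode. In all 4 libraries Xist and Eif2s3y went against the labelled sex: the libraries of the mouse labelled male held Xist at 575 and 466 counts per 1000000 molecules (CPM) and Eif2s3y at 0.0115 and 0.119 CPM, and those of the mouse labelled female held Xist at 0.705 and 0.907 CPM and Eif2s3y at 88.1 and 67.0 CPM. Sex enters no value below, and mouse, batch and labelled sex cannot be told apart. Cells were clustered and named by marker genes. The enterocyte-like class held 27461 cells and carried Fabp2 at 1206 to 5853 CPM with Ptprc, the pan-leukocyte gene, at 0.515 to 0.913 CPM. The stem/progenitor-like class held 2059 cells, the enteroendocrine-like class 257, and the immune-like class 53, with Ptprc in 49 of the 53.

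The butyrophilin-like genes lie together on chromosome 17 in the order Btnl2, Btnl1, Btnl4 and Btnl6. The 120 bases before their RefSeq starts (GRCm38.p6) are shown because those of Btnl1 and Btnl2 share an element, and because the windows of Btnl4 and Btnl6 are near copies of each other. Capitals mark matches to CAAAGTCC, an element bound by the enterocyte factor Hnf4, and to AGATAA, an element bound by Gata factors. The windows were at chr17:34377012-34377131 (plus strand) for Btnl1, chr17:34354702-34354821 (plus) for Btnl2, chr17:34475938-34476057 (minus) for Btnl4 and chr17:34517353-34517472 (minus) for Btnl6. In the gene annotation Btnl4 spans 34468410 to 34477428 and Btnl6 spans 34507870 to 34518776. For both, the start used and its window therefore lie inside the annotated gene, and these windows are not shown to be promoter sequence.
Btnl1: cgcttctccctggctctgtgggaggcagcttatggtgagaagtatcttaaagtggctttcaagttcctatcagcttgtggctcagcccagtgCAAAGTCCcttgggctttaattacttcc
Btnl2: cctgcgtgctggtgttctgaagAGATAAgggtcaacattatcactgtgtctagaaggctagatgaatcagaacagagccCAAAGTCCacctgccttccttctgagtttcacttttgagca
Btnl4: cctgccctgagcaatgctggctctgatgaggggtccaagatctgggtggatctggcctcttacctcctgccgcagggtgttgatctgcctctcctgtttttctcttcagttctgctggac
Btnl6: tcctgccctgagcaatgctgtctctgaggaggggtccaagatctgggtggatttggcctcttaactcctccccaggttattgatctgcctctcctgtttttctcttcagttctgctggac

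Searched on both strands, CAAAGTCC was present in 467 of 32851 mouse promoter windows of 300 bases (1.42%), AGATAA in 11.2%, TTTATG, an element bound by Cdx factors, in 11.9%, and the palindromic element bound by Hnf1 in 0.14%, none of them a member's. No match overlaps another in the printed sequences. CAAAGTCC began 28 bases before the start of Btnl1 and 41 before that of Btnl2, AGATAA 98 bases before that of Btnl2, and TTTATG occurred in a window of Ccl25. CAAAGTCC was in no window of Btnl4, Btnl6, Ccl25 or Clec2d. Whether any of these elements bears on the regional levels was not tested. Over 300 bases the Btnl4 and Btnl6 windows were 91.1% identical, against 56.0% for the next most alike pair, Btnl1 and Btnl2. Their transcript ends, where these libraries were read, were also alike other genes: 22.6% of the 31-base words in the last 500 bases of Btnl4 (GENCODE M21) and 20.0% of those of Btnl6 occurred in transcripts of another gene, mostly the pseudogene Btnl7-ps. That share was 0% for Btnl1, Btnl2 and Ccl25 and 1.49% for Clec2d, so counts of Btnl4 and Btnl6 are less certain than those of the others. A match is no evidence of binding, and a window without one says only that these letters are not in it. The libraries were aligned to GRCm39, and the windows are therefore shown for their letters and annotation only.

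In enterocyte-like cells all 6 genes were higher in both jejunal libraries than in both ileal ones. Levels are in CPM, the molecules of a gene summed over the cells of a class in a library and set against all molecules of those cells, and values run ileum replicates 1 and 2, then jejunum replicates 1 and 2. Btnl1, the obligate partner in the complex, stood at 64.3, 82.2, 163 and 166 CPM (mean 73.3 ± 12.7 in ileum and 165 ± 2.17 in jejunum, SD, n = 2). Jejunum exceeded ileum 2.54-fold in mouse 1 and 2.02-fold in mouse 2. Btnl6, its partner, stood at 24.2, 22.0, 51.0 and 41.4 CPM (23.1 ± 1.51 and 46.2 ± 6.83, SD, n = 2), which is 2.11-fold and 1.88-fold higher in jejunum. Btnl4, the member with the fewest molecules in enterocyte-like cells, stood at 10.8, 8.21, 14.5 and 12.9 CPM (9.49 ± 1.80 and 13.7 ± 1.17, SD, n = 2), with ratios of 1.35 and 1.57. Its regional gap was the smallest of the 6, resting on 894, 749, 791 and 535 molecules.

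Btnl2, the T cell inhibitor, had the largest regional ratio of the butyrophilin-like genes. It stood at 36.8, 50.2, 128 and 143 CPM (43.5 ± 9.51 and 135 ± 10.1, SD, n = 2), which is 3.49-fold and 2.84-fold higher in jejunum in mice 1 and 2. Ccl25, the chemokine, stood at 63.7, 98.4, 151 and 210.0 CPM (81.1 ± 24.5 and 181 ± 41.7, SD, n = 2), with ratios of 2.37 and 2.13. Clec2d, the ligand of the Klrb1b receptor, stood at 27.4, 57.6, 87.5 and 113 CPM (42.5 ± 21.4 and 100.2 ± 18.0, SD, n = 2), with ratios of 3.19 and 1.96. For Ccl25 and Clec2d the library of mouse 2 was the higher in both regions, as it was for Btnl1 and Btnl2. The groups of Ccl25 and Clec2d were spread more widely than those of Btnl1. The regional ratio within a mouse was steadier for Ccl25 than for Clec2d.

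The background of the same contrast was read from a fit of all genes tested, not from the members. In enterocyte-like cells 1369 of 19674 genes passed an adjusted p of 0.05 (edgeR quasi-likelihood test, Benjamini-Hochberg), which is 6.96% of those tested, 2.94% with the jejunum higher. Btnl1, Btnl2 and Btnl6 were among them, with log2 differences (ileum minus jejunum) of -1.28 ± 0.19, -1.75 ± 0.22 and -1.12 ± 0.15 (SE). The values were -0.65 ± 0.17 for Btnl4, -1.27 ± 0.30 for Ccl25 and -1.34 ± 0.40 for Clec2d, which did not pass. With the mouse as a block, which the shared animals allow, 15.8% of genes passed and all 6 members did. Levels of both jejunal libraries exceeded both ileal ones for 23.8% of genes tested and for 6 of 6 members. The median log2 difference of the 6 was -1.27, against -0.0078 over all genes tested. Since this contrast chose the members, nothing is read from these counts.

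The stem/progenitor-like class, made of a cycling cluster and an Lgr5 and Olfm4 cluster, showed the regional gap for some members and not for others. Btnl1 stood at 29.9, 24.4, 48.7 and 37.0 CPM (27.1 ± 3.92 and 42.9 ± 8.31, SD, n = 2), with jejunum 1.63-fold and 1.52-fold higher. Btnl2 stood at 7.63, 7.47, 29.3 and 35.6 CPM (7.55 ± 0.111 and 32.5 ± 4.48, SD, n = 2), with ratios of 3.84 and 4.77. Both genes were thus lower than in enterocyte-like cells and still did not overlap between regions. Ccl25 stood at 259, 299, 303 and 313 CPM (279 ± 28.3 and 308 ± 6.48, SD, n = 2), with ratios of 1.17 and 1.05. For Btnl6 (9.76, 9.09, 11.0 and 8.10 CPM) and Clec2d (33.2, 30.5, 28.7 and 33.5 CPM) the regions overlapped. Btnl4 was lower in jejunum, at 8.85, 5.84, 5.22 and 4.86 CPM, from 29, 18, 18 and 18 molecules.

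In this class 310 of 12832 genes tested passed by the same edgeR test and adjustment (2.42%, and 1.04% with the jejunum higher), Btnl2 among them. With the mouse as a block 6.8% passed, Btnl1 and Btnl2 among them. Both jejunal levels exceeded both ileal ones for 19.2% of genes tested and for 3 of the 6 members, Btnl1, Btnl2 and Ccl25. The fitted log2 differences (ileum minus jejunum, SE) were -0.70 ± 0.20 for Btnl1 and -2.14 ± 0.24 for Btnl2. They were 0.50 ± 0.38 for Btnl4, -0.06 ± 0.31 for Btnl6, -0.18 ± 0.14 for Ccl25 and -0.00 ± 0.18 for Clec2d. The median of the 6 was -0.12, against 0.0029 over all genes tested. Since the members were chosen on their regional levels in these libraries, nothing is read from these counts either. Whether the regional difference of a gene differed between the enterocyte-like and stem/progenitor-like classes was not tested.

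Between stem/progenitor-like and enterocyte-like cells Ccl25 ran opposite to the butyrophilin-like genes. Its level in stem/progenitor-like cells over that in enterocyte-like cells of the same library was 4.06, 3.04, 2.01 and 1.49, in the library order above, so it was the higher in stem/progenitor-like cells in all 4. The same ratio was 0.465, 0.296, 0.299 and 0.222 for Btnl1, 0.207, 0.149, 0.229 and 0.250 for Btnl2, and 0.404, 0.413, 0.216 and 0.196 for Btnl6. It lay between 0.360 and 0.822 for Btnl4 and between 0.296 and 1.21 for Clec2d, whose single value above 1 came from ileum replicate 1. Enteroendocrine-like cells, the hormone-secreting class, held Btnl1 at 14.2 to 32.9 CPM and Btnl2 at 6.53 to 20.6 CPM, under the enterocyte-like level in every library. Clec2d there stood at 45.7, 78.3, 73.8 and 74.1 CPM. Over the enterocyte-like level of the same library this was 1.67 and 1.36 in ileum and 0.844 and 0.656 in jejunum. Btnl6 stood at 32.7, 39.2, 21.7 and 12.4 CPM and Ccl25 at 91.4, 57.0, 34.7 and 45.3 CPM in enteroendocrine-like cells, on 3 to 11 and 8 to 28 molecules a library, and both were there the lower in jejunum. A shallow cluster of 671 cells left unnamed, which falls in no class, held Btnl6 at 85.8, 126, 115 and 72.1 CPM and Btnl4 at 12.7, 31.6, 21.7 and 25.0 CPM, each above the enterocyte-like level of its library, as Ccl25 was there. Immune-like cells held from 0 to 10 molecules of any member in a library, and no molecule of Btnl4.

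**Figure D1:**
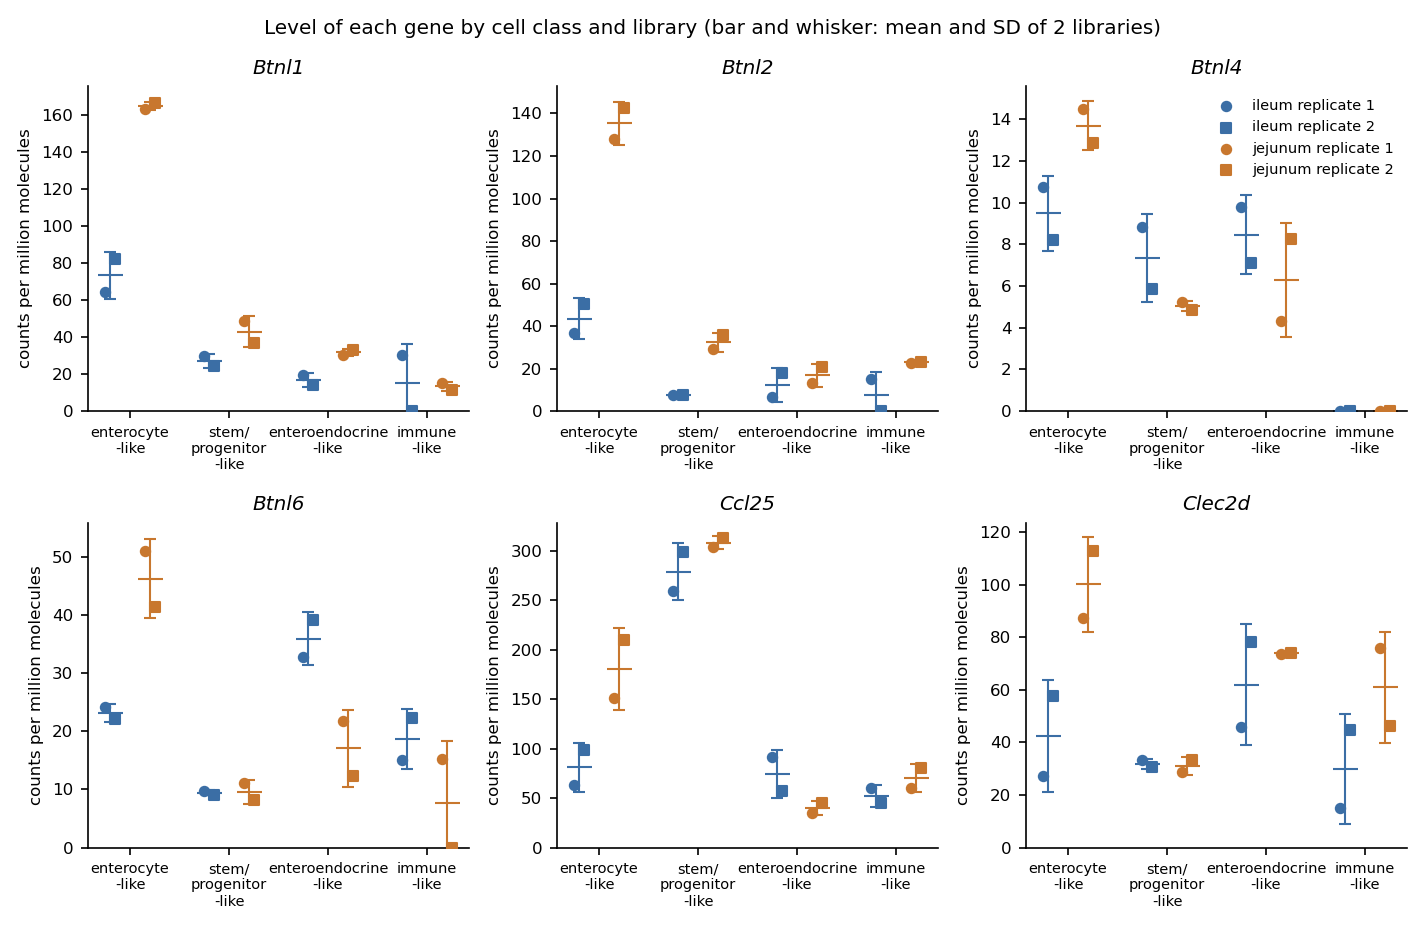
Level (CPM, linear axes from 0) of each of the 6 genes in 4 cell classes, with 1 point per library, blue for ileum and orange for jejunum, circles for replicate 1 and squares for replicate 2, and a bar and whisker for the mean and SD of 2 libraries. In enterocyte-like cells every jejunal point lies above both ileal points, and Ccl25 is highest in stem/progenitor-like cells, at 259 to 313 CPM.

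Because ileal cells were deeper, the share of cells with a gene was compared after each cell had been thinned to 2000 molecules, which left out 42, 235, 636 and 176 enterocyte-like cells with fewer. Btnl1 was then seen in 12.0% (exact 95% binomial interval 11.2 to 12.8), 14.8% (14.0 to 15.7), 26.6% (25.6 to 27.6) and 27.0% (25.8 to 28.3) of enterocyte-like cells. Unthinned, the shares were 48.7%, 54.1%, 54.3% and 60.9%, at median depths of 13587, 11918, 4869.5 and 6163 molecules. The regional gap was therefore much narrower in the raw shares than in the thinned ones, although the direction was the same. Intervals cover counting error only.

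Thinned shares of the other members followed their levels. Btnl6 was seen in 6.84%, 6.24%, 12.0% and 11.4% of enterocyte-like cells, against 24.5%, 21.2%, 27.3% and 27.7% unthinned. Btnl4 was seen in 2.71%, 1.87%, 3.39% and 3.14%, and unthinned in 12.2%, 9.0%, 8.91% and 10.0%, so the raw share put ileum replicate 1 highest and the thinned share did not. Btnl2, whose raw shares were 32.5%, 40.2%, 50.2% and 60.7%, was seen in 7.16%, 9.74%, 23.1% and 26.0% of thinned cells. Ccl25 was seen in 12.2% (11.4 to 13.0), 15.5% (14.7 to 16.4), 20.1% (19.2 to 21.0) and 28.5% (27.2 to 29.8), against 34.0%, 39.7%, 38.7% and 53.4% unthinned. Clec2d was seen in 6.33%, 11.9%, 18.7% and 23.4%, against 25.1%, 41.5%, 39.1% and 53.2% unthinned. In stem/progenitor-like cells the Ccl25 share was 37.4%, 43.0%, 40.7% and 41.7%, while the Btnl1 share was 3.85% to 9.84% and the Btnl6 share 1.93% to 2.23%.

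Immune-like cells, which should lack Btnl1, Btnl4, Btnl6 and Ccl25, gave the background for these genes, whereas Clec2d is also known from leukocytes. Of 49 such cells with 2000 or more molecules, pooled over libraries (median depth before thinning 3288 to 7382 molecules), 4.08% held Btnl1 (exact interval 0.498 to 14.0), 4.08% Btnl2, 2.04% Btnl6 (0.052 to 10.9), 10.2% Ccl25 (3.40 to 22.2) and 8.16% Clec2d (2.27 to 19.6). No cell of the 49 held a molecule of Btnl4, which allows a share of cells with a molecule of up to 6.12% by a limit of 3 counts, and up to 7.25% by the exact interval. Above these intervals lay the enterocyte-like shares of Btnl1 in ileum replicate 2 and both jejunal libraries, of Btnl2 and Btnl6 in both jejunal libraries and of Ccl25 and Clec2d in jejunum replicate 2, and the stem/progenitor-like shares of Ccl25 in all 4 libraries. The other enterocyte-like shares of Btnl1, Btnl2, Btnl6 and Ccl25, every enterocyte-like and stem/progenitor-like share of Btnl4 and the Btnl1, Btnl2 and Btnl6 shares of stem/progenitor-like cells lay within them and are not told apart from background by the share alone. The other enterocyte-like shares of Clec2d also lay within its interval, which is no measure of background for a gene known from leukocytes.

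**Figure D2:**
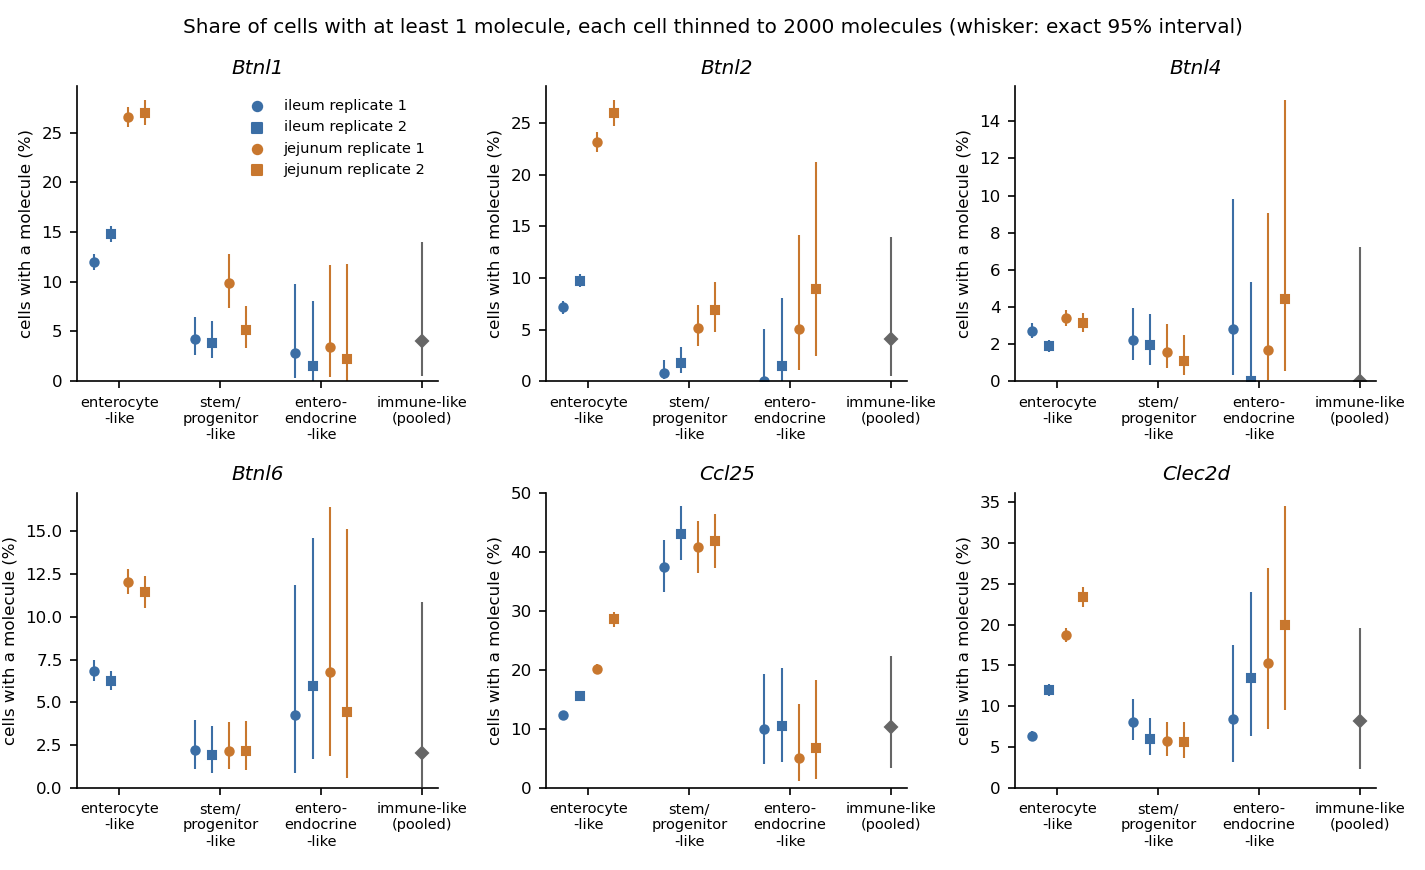
Share of cells (%) with at least 1 molecule of each gene after each cell was thinned to 2000 molecules, by cell class and library (blue ileum, orange jejunum, circles replicate 1, squares replicate 2), with exact 95% binomial intervals as whiskers and the 4 libraries pooled for immune-like cells (grey). Btnl1 is seen in 12.0% and 14.8% of ileal and 26.6% and 27.0% of jejunal enterocyte-like cells, and Ccl25 is seen in 37.4% to 43.0% of stem/progenitor-like cells.

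Most ileal enterocyte-like cells showed none of the 6 genes at this depth: 61.4% and 53.4% in ileum, and 30.5% and 25.2% in jejunum. Exactly 1 member was seen in 30.9%, 34.7%, 42.2% and 40.0% of cells, and exactly 2 in 6.82%, 10.3%, 20.9% and 26.5%. No thinned cell held all 6. Among cells with a gene, more than 1 molecule was most often seen for Ccl25, in 23.0%, 27.4%, 24.8% and 32.4% of its cells, with up to 7 molecules in a cell. For Btnl1 that share was 5.46% to 16.7% and for Btnl4 0.709% to 2.01%. Thinned cells with Ccl25 numbered 803, 1169, 1509 and 1353, and those with Btnl1 numbered 787, 1118, 2001 and 1283. The numbers of molecules were not matched between the genes.

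Within the enterocyte-like class, 14 clusters had 50 or more cells in every library, and the members differed in how they spread over them. Of the 6 genes, Ccl25 alone was among the 2000 genes used for clustering, so its differences between clusters follow in part from the clustering. Btnl1 was even, with cluster levels of 54.5 to 80.2 CPM in ileum replicate 1, 65.2 to 95.8 in ileum replicate 2, 106 to 200 in jejunum replicate 1 and 114 to 201 in jejunum replicate 2. Ccl25 ranged most. It was highest in a cluster led by Gm17494, Snhg20 and Celf2, with Ccl25 and Aldh1a1 also among its leading genes (366, 533, 527 and 694 CPM). Next came a cluster led by the bile acid binding gene Fabp6, Aldh1a1, Mt2 and Lypd8 (234, 317, 398 and 486 CPM). Ccl25 was lowest in a cluster led by Sprr2a2 and Enpp3 (11.6, 12.3, 16.8 and 27.7 CPM). Clec2d and Btnl2 were highest at the other end, in a cluster led by Sprr2a2, Nt5e and Trf, where Clec2d reached 98.3, 224, 254 and 238 CPM and Btnl2 81.5, 81.8, 167 and 197 CPM. Nt5e, which encodes the adenosine-forming ecto-enzyme CD73, is known as a villus tip gene. Btnl6 had more than 1 high cluster: 67.7, 68.8, 112 and 106 CPM in a cluster led by Serpina1a, Celf2 and Cd36, of which Btnl6 was itself a leading gene, 85.9, 85.0, 84.6 and 65.4 CPM in the cluster that was highest for Ccl25, and 38.2, 63.8, 123 and 91.6 CPM in that led by Sprr2a2, Nt5e and Trf. Median depth in these clusters was 3363, 3986 and 3096 molecules a cell, in that order. The cluster led by Fabp6 had 17040.5 and that led by Sprr2a2 and Enpp3 had 13631. The part of depth in the cluster levels was not tested.

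**Figure D3:**
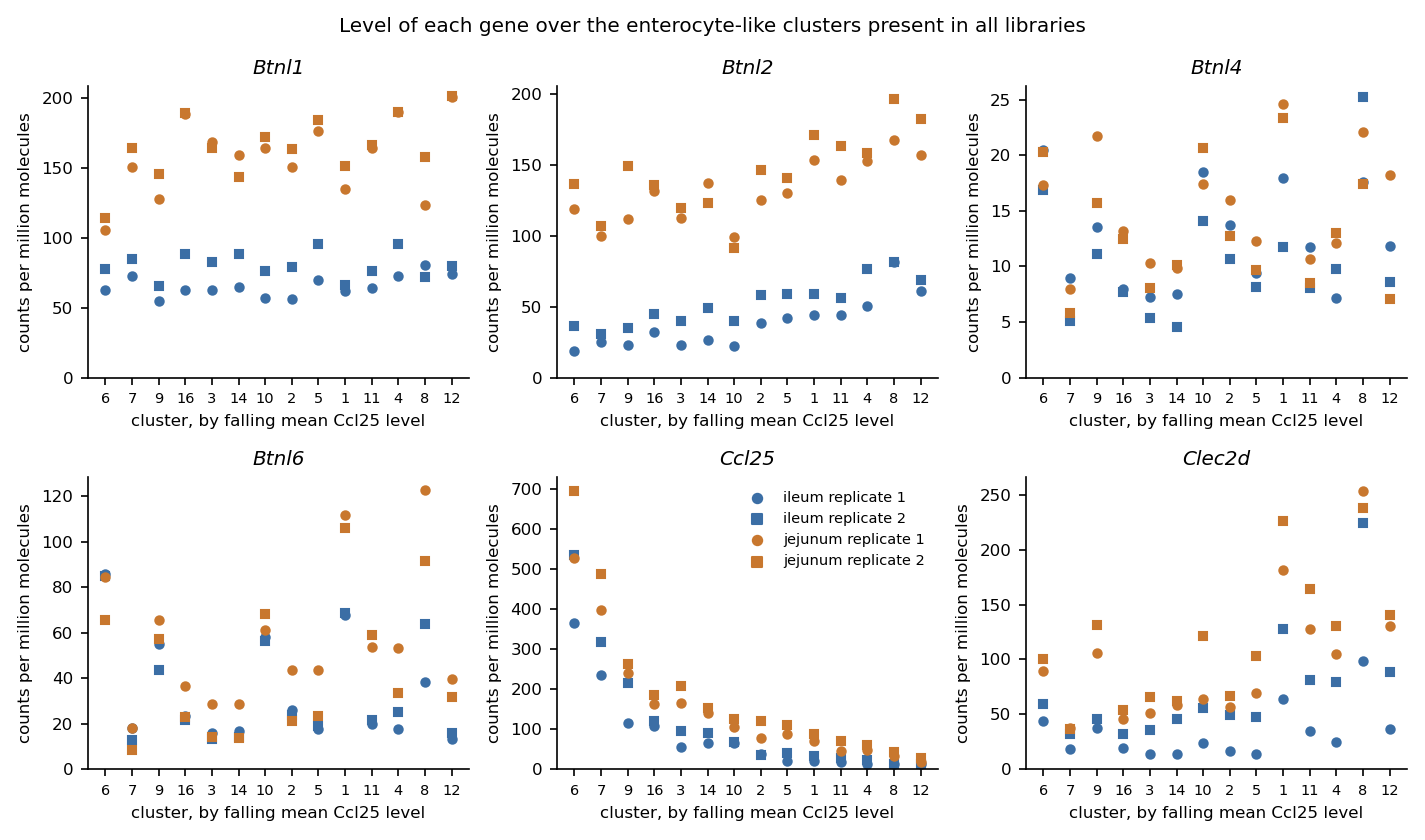
Level (CPM, linear axes from 0) of each gene in the 14 enterocyte-like clusters with 50 or more cells in every library, ordered from left to right by falling mean Ccl25 level, 1 point per cluster and library (blue ileum, orange jejunum, circles replicate 1, squares replicate 2). Ccl25 falls from 366 to 694 CPM in its highest cluster toward 0, whereas Btnl1 stays between 54.5 and 95.8 CPM in ileum and between 106 and 201 CPM in jejunum.

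Jejunum was higher than ileum in both mice in 14 of 14 of these clusters for Btnl1, Btnl2, Ccl25 and Clec2d. The same was so in 10 of 14 clusters for Btnl6 and in 8 of 14 for Btnl4. The median jejunum over ileum ratio across clusters was 2.55 and 2.11 (mice 1 and 2) for Btnl1, 3.73 and 2.76 for Btnl2, and 2.11 and 2.21 for Ccl25. It was 3.17 and 1.70 for Clec2d, 1.70 and 1.21 for Btnl6 and 1.31 and 1.27 for Btnl4. The clusters share their 4 libraries and are not replicates of the region.

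The mitochondrial share, which differed between regions, moved with some members inside single libraries. Enterocyte-like cells were split at 5% and 10% mitochondrial molecules. Median depth fell over these bins in every library, from 9199 to 16796 molecules a cell in the lowest bin to 3007 to 4431 in the highest. Mitochondrial share and depth therefore cannot be told apart here. Btnl6 went from 21.5 through 44.4 to 53.3 CPM over these bins in ileum replicate 1, from 18.5 through 38.5 to 57.0 in ileum replicate 2, from 39.1 through 55.7 to 99.5 in jejunum replicate 1 and from 19.2 through 38.9 to 75.7 in jejunum replicate 2. In the lowest bin the Btnl6 level of jejunum replicate 2 therefore lay between those of the ileal libraries. So did its Btnl4 level, at 9.28 CPM against 10.1 and 7.58 CPM in ileum replicates 1 and 2. Clec2d went from 67.8 through 102 to 155 CPM and from 83.9 through 106 to 162 CPM in the jejunal libraries. Btnl1 went the other way, from 174 through 154 to 126 CPM and from 181 through 172 to 140 CPM there, and stayed above ileum in every bin. With cells of 10% or more left out, the fitted log2 difference (ileum minus jejunum) of Btnl6 was -0.75, against -1.12 with them. That of Btnl4 was -0.48, against -0.65, and that of Btnl1 was -1.34, against -1.28. The part of the mitochondrial share in the regional values was not tested beyond this.

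**Figure D4:**
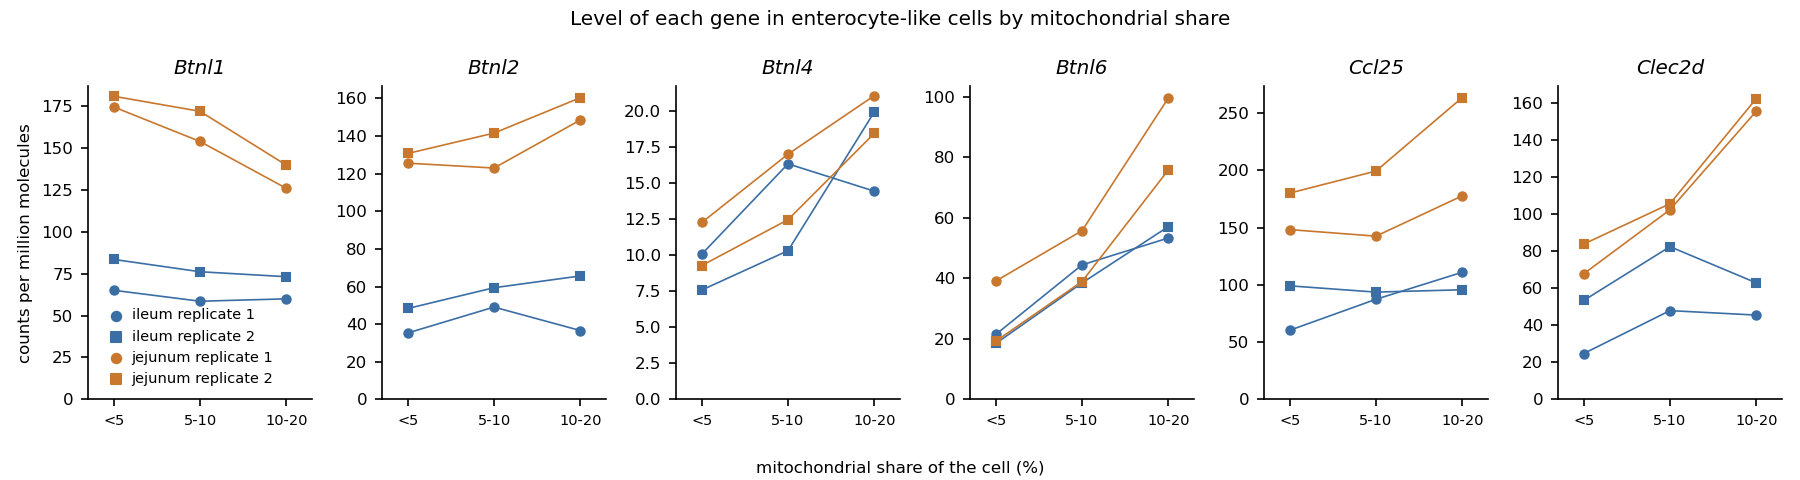
Level (CPM, linear axes from 0) of each gene in enterocyte-like cells grouped by their mitochondrial share (under 5%, 5 to 10%, 10 to 20%), with 1 line per library (blue ileum, orange jejunum, circles replicate 1, squares replicate 2). Btnl6 is higher at each bin in all 4 libraries, to 53.3 to 99.5 CPM in the last bin, while Btnl1 is lower at each in both jejunal libraries.

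Co-expression was read per enterocyte-like cell at 2000 molecules, as the number of cells holding both genes over the number expected from their separate shares, for all 15 pairs. Btnl1 and Btnl6, whose proteins form the complex, were seen together in 59, 70, 226 and 138 cells, against 53.8, 69.7, 241 and 147 expected. The ratio was 0.938 to 1.10 over the 4 libraries and 0.957 to 1.07 with the expectation taken within clusters. Btnl1 and Btnl2 gave 0.930 to 1.15, and Btnl1 and Btnl4 0.844 to 1.21, so for Btnl1 with each of these partners the libraries lay on both sides of 1.

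The pair of Btnl6 and Clec2d gave 1.27 to 1.52 over the 4 libraries, and 1.06 to 1.22 within clusters. At 4000 molecules a cell that pair gave 1.10 to 1.23, and 1.01 to 1.08 within clusters, and at 1000 it gave 1.19 to 1.83. Btnl2 and Clec2d gave 1.07 to 1.31 at 2000, and 0.890 to 1.16 within clusters. Ccl25 and Clec2d lay below 1 in all 4 libraries, at 0.760 to 0.859, and at 0.817 to 0.997 within clusters. Ccl25 and Btnl2 gave 0.644 to 0.956, and 0.882 to 1.12 within clusters. Btnl4 and Btnl6, whose windows are near copies, gave 1.81, 1.59 and 1.65 in 3 libraries and 0.912 in jejunum replicate 1, on 14 to 28 cells with both. Within clusters this pair gave 0.813 to 1.47. Cells of a library share its free RNA, and the mean correlation of these pairs per cell lay between -0.042 and 0.053, which in counts this sparse is no finding.

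**Figure D5:**
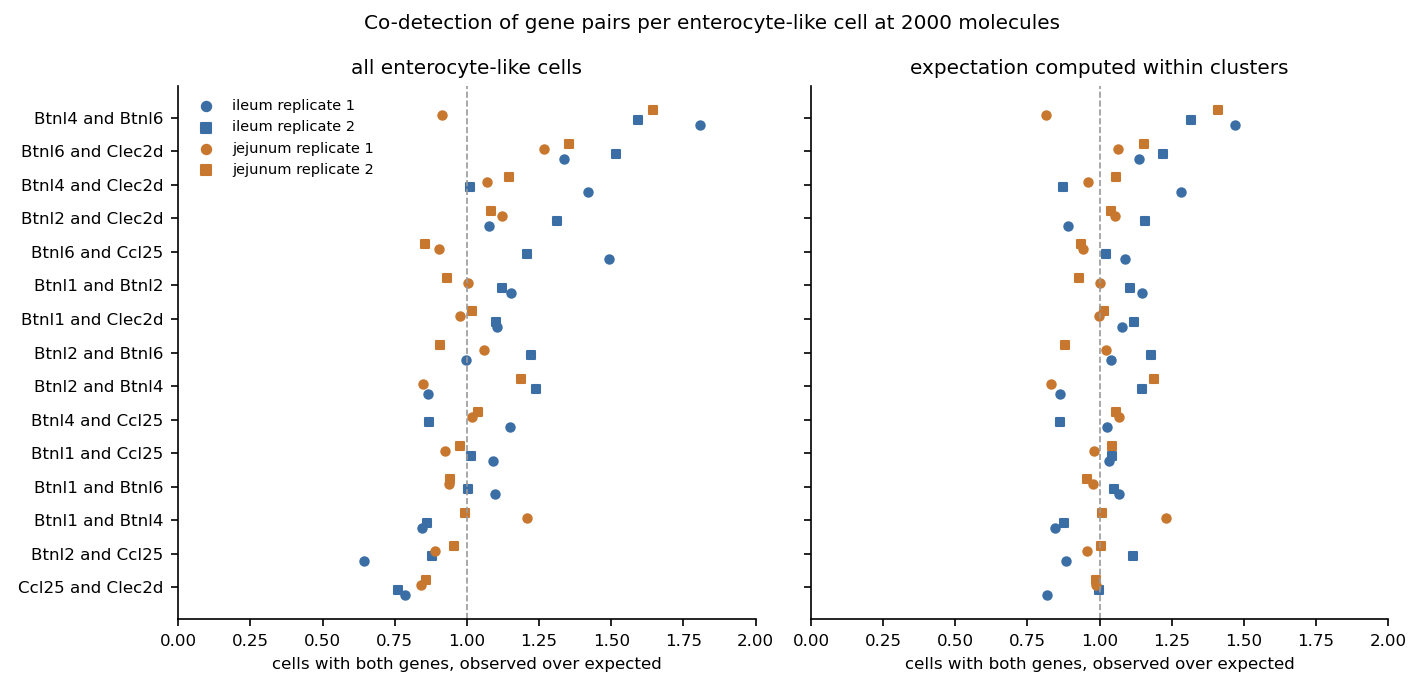
Cells holding both genes of a pair, observed over expected, in enterocyte-like cells at 2000 molecules, for the 15 pairs of the 6 genes, 1 point per library (blue ileum, orange jejunum, circles replicate 1, squares replicate 2), with the expectation over all enterocyte-like cells on the left and within clusters on the right. The dashed line marks 1; Btnl6 with Clec2d lies right of it at 1.27 to 1.52 and Ccl25 with Clec2d left of it at 0.760 to 0.859, and both move toward it within clusters.

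The genes most like each member per enterocyte-like cell were ranked by mean Pearson correlation over the 4 libraries, among 5092 genes seen in 5% or more of thinned cells. For Ccl25 they were Rps4x (0.281), Lypd8 (0.277), Chd9 (0.269), Anpep (0.266) and Rpsa (0.265). Rps4x and Rpsa encode small-subunit ribosomal proteins, Lypd8 a mucosal anti-bacterial protein and Anpep a brush-border peptidase. The lysosomal protease genes Lgmn (-0.351) and Ctsl (-0.316) and the glutathione peroxidase gene Gpx3 (-0.375) stood at the opposite end for Ccl25. For Clec2d the nearest were Gpx3 (0.157) and the lipoprotein genes Apoc2, Apoa1 and Apoa4 (0.141 to 0.146), with H2-K1 (0.127). For Btnl2 they were Apoa4 (0.076), Apoc2 (0.071), Lgmn (0.071), Ctsl (0.066) and Alpi (0.064), and for Btnl6 mt-Nd3 (0.116), Celf2 (0.112), Malat1 (0.108), mt-Co3 (0.108) and mt-Atp6 (0.097). Btnl1, with Fabp1 (0.049) nearest, and Btnl4, with mt-Co3 (0.042) nearest, had no neighbour above 0.05. These correlations share library, depth and free RNA, and values this low in sparse counts are a description.

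The same cells can be read as shares, which restate the correlations that singled out Lgmn, Gpx3 and Lypd8 and add no support to them. Ccl25 was seen in 34.9%, 43.7%, 39.3% and 46.5% of enterocyte-like cells with no Lgmn molecule and in 10.2%, 12.3%, 15.8% and 19.0% of those with one. Without Gpx3 the Ccl25 shares were 47.1%, 54.7%, 45.8% and 56.2%, and with it 11.0%, 14.4%, 17.1% and 23.8%. Lypd8 ran the other way, with Ccl25 in 5.41%, 7.03%, 14.6% and 22.4% of cells without it and 19.2%, 26.9%, 31.7% and 48.7% of cells with it. Cells were also grouped by how many listed villus tip genes they held, from at most 1 through 2 and 3 to 4 or more. Over these groups the Ccl25 share was 19.9%, 13.1%, 9.69% and 8.34% in ileum replicate 1 and 17.5%, 15.6%, 15.3% and 13.1% in ileum replicate 2, lower at each step. It was 17.8%, 20.3%, 19.5% and 23.0% in jejunum replicate 1 and 24.1%, 28.8%, 30.7% and 25.8% in jejunum replicate 2, where the exact intervals of the first and last groups overlapped (20.6 to 27.8 and 22.3 to 29.6). By listed base and crypt genes, from none to 3 or more, the Ccl25 share was higher in the last group in all 4 libraries, at 18.9% against 11.9%, 35.5% against 14.3%, 35.8% against 19.2% and 62.1% against 27.2%, on 29 to 53 cells in that group. In ileum replicate 1 the exact interval of the last group, 7.96 to 35.2, held the 11.9% of the first. The group with 2 such genes there lay at 11.0%. The Btnl1 share changed little between the first and last tip groups, from 10.8% to 11.6%, 14.9% to 14.6%, 25.8% to 27.2% and 26.6% to 30.0%.

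Other genes of the same systems were read from lists, with the region difference tested by edgeR's quasi-likelihood test and Benjamini-Hochberg adjustment over all genes. Of the other butyrophilin-family genes, 6 were tested in enterocyte-like cells, where none passed by edgeR or DESeq2 and 1 had an unadjusted p under 0.05, and none had counts enough to be tested in stem/progenitor-like cells. No analysed gene of that list exceeded 3.57 CPM in a library of either class, so Btnl1, Btnl2, Btnl4 and Btnl6 stood above each of them. Btnl7-ps, Btnl5-ps and Hhla2 were listed and not analysed, and family members outside the list were not compared. Clec2 genes and their receptors gave 1 call of 6 tested there, and with the mouse as a block Clec2e passed too. Clec2h, a relative of Clec2d that marks gut epithelium, stood at 903, 787, 366 and 351 CPM, higher in ileum (log2 difference 1.12, adjusted p = 0.0221, edgeR), the reverse of Clec2d. Among stem/progenitor-like cells Clec2h stood at 135, 112, 41.2 and 22.9 CPM (log2 difference 1.91, adjusted p = 0.00404, edgeR). Clec2e, of 3 tested, passed there as well, at 72.0, 61.4, 37.4 and 28.1 CPM (0.99, adjusted p = 0.0259, edgeR). Both Clec2h and Clec2e were thus higher in ileum, in 2 of 2 mice. Without ileum replicate 1 the Clec2h call in enterocyte-like cells was lost (adjusted p of 1.12e-10 to 0.0547 over 13 alternatives), and that of Clec2e in stem/progenitor-like cells was lost without ileum replicate 1 or jejunum replicate 2.

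Of 14 other chemokine ligand genes tested in enterocyte-like cells, 1 passed: Ccl9, at 0.072, 0.088, 0.349 and 0.337 CPM (log2 difference -2.18, adjusted p = 0.0370, edgeR), a call lost when any of the 4 libraries was left out. Ccl24, which draws eosinophils, stood at 8.14, 13.6, 21.6 and 36.2 CPM (-1.52, adjusted p = 0.0730, edgeR) and passed with the mouse as a block. Cx3cl1, the membrane-bound fractalkine, stood at 201, 183, 175 and 151 CPM (0.12, adjusted p = 0.570, edgeR). Of chemokine genes, 5 were tested in stem/progenitor-like cells and none passed by edgeR, with or without the block, or by DESeq2, and none had an unadjusted p under 0.05.

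Among 17 other epithelial ligands and cytokines for intraepithelial lymphocytes, 1 was called in each direction in enterocyte-like cells, and with the mouse as a block Tnfrsf14, Nectin2 and Icam1 passed too. Il15ra, which presents interleukin 15 to these lymphocytes, stood at 0.843, 1.09, 4.77 and 7.84 CPM, higher in jejunum (log2 difference -2.82, adjusted p = 0.0235, edgeR), a call lost without ileum replicate 1. Raet1d, a stress ligand of the Klrk1 receptor with close relatives, stood at 1.53, 0.811, 0.037 and 0.024 CPM, higher in ileum (5.03, adjusted p = 0.0199, edgeR). Its jejunal values lay under the level of 3 molecules, 0.055 and 0.072 CPM in jejunum replicates 1 and 2, so the size of this difference is uncertain. H2-T3, the ligand of CD8 alpha homodimers, stood at 104, 154, 214 and 183 CPM (-0.73, adjusted p = 0.123, edgeR). Cdh1, the E-cadherin bound by the Itgae integrin, stood at 856, 823, 888 and 670 CPM (adjusted p = 0.986, edgeR). Of 13 genes of this list tested in stem/progenitor-like cells none passed by edgeR or DESeq2, and 2 had an unadjusted p under 0.05.

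The matching receptors were carried by few cells here. Of the 53 immune-like cells, 22 held Ccr9, the Ccl25 receptor, 21 Itgae and 30 Itgb7, 20 held Cd3e, 16 Cd8a and 14 Trdc, and 11 held Klrb1b, the receptor of Clec2d. No molecule of Klrk1 or Klrb1f was seen in the 53, which by a limit of 3 counts allows up to 5.66% of cells with a molecule and sets no limit on cells that express the gene. Of 8 lymphocyte receptor genes tested in enterocyte-like cells, Cxcr3 passed, higher in ileum, at 0.794, 0.778, 0.165 and 0.096 CPM (2.43, adjusted p = 0.0289, edgeR), a call lost without either ileal library or without jejunum replicate 2. Of 6 intraepithelial lymphocyte genes tested there, Trac passed, higher in jejunum, at 2.09, 1.22, 19.3 and 25.9 CPM (-3.90, adjusted p = 0.0157, edgeR). Cd3e, which its receptor needs, stood at 0.024 to 0.110 CPM in those cells. Of the receptor genes 3 were tested in stem/progenitor-like cells, and none passed by edgeR or DESeq2 or had an unadjusted p under 0.05, while no intraepithelial lymphocyte gene had counts enough there. The immune-like cells, 20 from ileum and 33 from jejunum, came with the shaken-off epithelium and their numbers are not read as numbers in the tissue.

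Intestinal transcription factors were listed because several are known regulators of enterocyte and regional genes. Of 17 tested in enterocyte-like cells, 2 were higher in jejunum and none in ileum, and with the mouse as a block Klf4 and Creb3l3 passed too. Gata4, the factor that marks the upper small intestine, stood at 32.8, 51.4, 113 and 105 CPM (-1.48, adjusted p = 0.0367, edgeR), a call lost without ileum replicate 1 or jejunum replicate 2. Onecut2 stood at 0.963, 0.888, 15.3 and 75.7 CPM (-5.76, adjusted p = 0.0289, edgeR), a call lost without either ileal library. Of 18 tested in stem/progenitor-like cells, 4 passed: Gata4, at 34.5, 52.6, 174 and 191 CPM (-2.11, adjusted p = 0.00170, edgeR), Creb3l3 (-1.56, adjusted p = 0.00646, edgeR) and Onecut2 (-5.20, adjusted p = 0.00188, edgeR), higher in jejunum, and Maf (0.81, adjusted p = 0.0166, edgeR), higher in ileum. The Maf call was lost without jejunum replicate 2, and with the block Klf4, Prdm1 and Nr1h4 passed too.

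Genes of villus position were read beside the members because the members were compared over these lists above; no position in the villus was measured. Of 9 villus tip genes tested in enterocyte-like cells, 3 were higher in jejunum: Apoa4 (-1.63, adjusted p = 0.0197, edgeR), Apobec1 (-1.18, adjusted p = 0.0231, edgeR) and Krt20 (-2.79, adjusted p = 0.0348, edgeR). The calls of Apobec1 and Krt20 were lost without either ileal library. Of 10 villus base and crypt genes, Olfm4 was higher in jejunum (-2.35, adjusted p = 0.0187, edgeR) and Stmn1 in ileum (0.78, adjusted p = 0.0364, edgeR), the latter lost when any library was left out. The block added Klf4 and Creb3l3 to the tip genes that passed and Gsta1 and Hmgb2 to the base and crypt genes. In stem/progenitor-like cells Apoa4 (-1.47, adjusted p = 0.000725, edgeR), Creb3l3 and Olfm4 (-1.12, adjusted p = 0.00234, edgeR) were higher in jejunum, and the block added Klf4 and Pcna. The part of these genes in the regional levels of the members was not tested.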

How the data were processed

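The authors prepared PIP-seq libraries from 4 epithelial suspensions and deposited molecule counts per gene and called cell, aligned to GRCm39 per the submitters' processing notes. Cells with more than 1000 and fewer than 6000 genes and under 20% mitochondrial molecules and genes in 3 or more cells were kept, and clustered with Seurat 5.3.0 after integration. Clusters were named from marker lists. Doublets were scored with Scrublet (scanpy 1.11.5), which called 1, 1, 1 and 3 cells; this has not worked as a caller, so none were removed, and the cells with the highest 6% of scores were left out in an alternative. Totals per library were 57951874 to 131400239 molecules. Counts were summed per library and class and fitted with edgeR 4.0.16 (TMM, quasi-likelihood, region only; limma 3.58.1, R 4.3.3); DESeq2 1.42.0 was an alternative. Nothing but the 2 mice separates the libraries, so p-values measure the spread among these 4. Replicate numbers mark the mouse in the labels, and same-numbered libraries deviated together (correlation of deviations 0.348 over the genes of the enterocyte-like sums and 0.223 over those of the other class tested). The fitting script was tested on simulated data. Python 3.11.15, numpy 2.4.6, scipy 1.17.1 and pandas 2.3.3 did the rest.

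Members, lists and rules were chosen with earlier results of these data known. Named genes were the 6 members, the 5 genes nearest to each, and, of the lists, those that passed or otherwise up to 4 of the highest; the list genes Btnl7-ps, Btnl5-ps, Hhla2, Cxcl11, Tcrg-C1, Tcrg-C2 and Tcrg-C4 were not analysed here. Alternatives were other normalisations and filters, other limits on cells, depths and clusterings, the mouse as a block, and each library left out.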

Additional observations from a re-analysis of the deposited data

Results flagged for a closer look

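For 3 genes another cell class ran against enterocyte-like cells in both mice, and the difference between classes was not tested. Btnl4 in stem/progenitor-like cells had a log2 ratio of jejunum over ileum of -0.76 in mouse 1 and -0.27 in mouse 2, against 0.43 and 0.65 in enterocyte-like cells, on 18 to 29 molecules a library. Btnl6 in enteroendocrine-like cells had -0.59 and -1.66, against 1.08 and 0.91, on 3 to 11 molecules. Ccl25 in enteroendocrine-like cells had -1.40 and -0.33, against 1.24 and 1.09, on 8 to 28 molecules.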

How the results depend on the processing

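Genes that passed in enterocyte-like cells numbered 1369. They numbered 3067 by DESeq2 and 3102 with the mouse as a replicate block, and 274 to 1720 with a library left out. In stem/progenitor-like cells they numbered 310, against 873 with no filter on low counts, 873 with the mouse as a block, 577 with clusters made without integration, and 189 to 580 with a library left out. The block changed the calls of Btnl4, Ccl25 and Clec2d in enterocyte-like cells and of Btnl1 in stem/progenitor-like cells, as given above, and nothing is read from those calls. The members' log2 differences in enterocyte-like cells stayed negative under all 15 alternatives, between -1.52 and -1.07 for Btnl1, -2.04 and -1.50 for Btnl2, -0.80 and -0.48 for Btnl4, -1.21 and -0.75 for Btnl6, -1.67 and -0.95 for Ccl25 and -2.04 and -0.87 for Clec2d. In stem/progenitor-like cells they ranged from -0.89 to -0.24 for Btnl1, -2.28 to -1.58 for Btnl2 and -0.57 to -0.06 for Ccl25, with clusters made without integration giving -0.24, -1.58 and -0.57, while Btnl6 ranged from -0.27 to 0.62. Gata4 and Ccl9 in enterocyte-like cells were also lost with no filter, Ccl9 with mitochondrial shares under 10%, and Clec2e in stem/progenitor-like cells with the highest doublet scores left out. Apoa4 and Creb3l3 in stem/progenitor-like cells were lost without integration. With 2 mice, 53 immune-like and 257 enteroendocrine-like cells, values of the members in those classes rest on few molecules. The thinned shares of Btnl4 were not told apart from background at the depth used. The causes were not tested.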

Other observations

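Trac, the constant gene of the T cell receptor alpha chain, was seen in 883 and 855 jejunal enterocyte-like cells against 168 and 108 ileal ones, while Cd3e was seen in 1 to 7 enterocyte-like cells of a library. Ccr9 was seen in 609 enterocyte-like cells of jejunum replicate 1 and in 47 to 118 of each other library (11.9 CPM against 1.13 to 1.30 CPM; log2 difference ileum minus jejunum -2.48, adjusted p = 0.168, edgeR quasi-likelihood test with Benjamini-Hochberg adjustment). A shallow cluster left unnamed, with 671 cells, held Ccl25 at 394, 590, 572 and 680 CPM, above the stem/progenitor-like level of the same library.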
